A study of Mus musculus with 6 samples.

Results

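The SLAM family is a group of cell-surface receptors of the immunoglobulin superfamily found on lymphocytes and other blood cells. The members described here are the receptor genes Slamf1, Slamf6, Slamf7, Cd244a (older symbol Cd244), Cd48, Cd84 and Ly9 and the adaptor gene Sh2d1a, which encodes SAP. They were taken as every probe set (a group of short probes on the array that reads 1 transcript region) that the platform annotation gives to 1 of these symbols. This gave 14 probe sets for 8 genes, of 45101 probe sets and 18193 genes named by a single symbol in the whole table. The RNA came from CD8 T cells of MCA-205 tumours (a fibrosarcoma line grown as a transplant) in male C57BL/6 Eomes-GFP mice, whose GFP reports the T-box transcription factor Eomes. The GFP-positive fraction (Eomes+) and the GFP-negative fraction (Eomes-) were each measured on 3 arrays, and the comparison asks how the fractions differ within treated tumours. All mice of both fractions carried the reporter and had received anti-OX40, 250 ug on days 12 and 16, and anti-CTLA-4, 200 ug on days 12, 14 and 16. Treatment began at a tumour size of 50 to 80 mm2, and tumours were taken on day 19, so no untreated mice enter the comparison. The sources used here give neither the age of the mice nor whether animals were pooled. The study reports 3 independent experiments, but no label says which animals an array came from, and the p-values reflect only the spread between these samples.

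Most SLAM receptors bind a second copy of themselves on a neighbouring cell, whereas Cd244a binds Cd48, a receptor held in the membrane by a lipid anchor. The intracellular tails of most of them carry tyrosine motifs that recruit SAP, which links these receptors to the kinase FYN and to activating signals. Without SAP the same motifs can recruit phosphatases and inhibit the cell. On CD8 T cells of tumours and chronic infection, SLAMF6 is known as a surface marker of stem-like cells, and CD244 (2B4) as a co-receptor of more differentiated and exhausted cells.

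In the RefSeq annotation of assembly GRCm38.p6 the 7 receptor genes lie next to each other on chromosome 1, in the order Cd244a, Ly9, Slamf7, Cd48, Slamf1, Cd84 and Slamf6. Between the first and the last lies 1 other gene annotated as protein-coding, Tma7-ps, and Sh2d1a lies on the X chromosome. Promoters are shown for the 3 receptor genes with the largest differences, because the fractions were sorted on the reporter of a DNA-binding factor. Each window runs from 250 bases before to 50 bases after a RefSeq gene start, all on the + strand of GRCm38.p6, at chr1:171766882-171767181 for Slamf1, chr1:171558943-171559242 for Cd244a and chr1:171917212-171917511 for Slamf6. Capitals mark the 6-base core AGGTGT bound by T-box factors, on either strand (ACACCT when read on the other).
Slamf1: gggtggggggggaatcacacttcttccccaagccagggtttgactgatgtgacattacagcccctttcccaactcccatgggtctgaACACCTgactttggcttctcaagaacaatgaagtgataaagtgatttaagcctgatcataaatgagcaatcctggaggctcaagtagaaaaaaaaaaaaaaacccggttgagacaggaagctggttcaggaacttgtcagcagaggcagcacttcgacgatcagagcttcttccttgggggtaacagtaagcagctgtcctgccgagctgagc
Cd244a: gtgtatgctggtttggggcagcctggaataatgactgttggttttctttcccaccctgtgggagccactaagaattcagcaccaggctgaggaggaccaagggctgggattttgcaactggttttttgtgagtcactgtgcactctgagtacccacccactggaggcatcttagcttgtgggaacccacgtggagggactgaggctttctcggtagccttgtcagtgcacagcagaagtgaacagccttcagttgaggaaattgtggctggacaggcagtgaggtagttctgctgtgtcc
Slamf6: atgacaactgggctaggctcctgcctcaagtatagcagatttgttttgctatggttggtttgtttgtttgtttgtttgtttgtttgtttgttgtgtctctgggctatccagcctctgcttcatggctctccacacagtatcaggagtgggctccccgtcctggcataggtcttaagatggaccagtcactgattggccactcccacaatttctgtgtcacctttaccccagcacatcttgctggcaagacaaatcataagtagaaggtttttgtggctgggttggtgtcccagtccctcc
The Slamf1 window holds the core once, 163 bases before the start, and the Cd244a and Slamf6 windows do not hold these letters. Of the 6 members with an entry in the RefSeq promoter table, 2 hold it (Slamf1 and Cd84), and 13.7% of all 32851 windows of this length do. The core TGTGGT of Runx factors, searched on both strands, is in 2 of the 6 windows (Cd48 and Cd84, where it does not overlap the T-box core) and in 16.8% of all windows. A match of letters in these windows is not a measured binding site.

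Eomes itself was 2.86 and 3.15 log2 higher in Eomes+ for its probe sets 1426001_at and 1435172_at, and the groups did not overlap for either, although neither passed limma's test over the whole table (adjusted p = 1.00 for both). T cell markers were bright on all arrays. The mean of 9 measured T cell and CD8 marker genes, of 10 listed, was 11.96, 11.75 and 10.62 log2 on the Eomes+ arrays and 12.14, 12.10 and 10.84 on the Eomes- arrays. The third array of each fraction was the lowest. Genes of other cells ran the opposite way across arrays. For 14 tumour and fibroblast markers, of 15 listed, the mean signal was 8.67, 10.60 and 11.56 log2 on the Eomes+ arrays and 8.78, 9.74 and 11.45 on the Eomes- arrays, with 13 of 14 higher on average in Eomes+. For 15 macrophage markers, of 16 listed, it was 8.38, 9.88 and 10.78 log2 on the Eomes+ arrays and 8.10, 9.12 and 10.73 on the Eomes- arrays, with 12 of 15 higher in Eomes+. The mean of 9 B and plasma cell markers, of 10 listed, was low, at 5.20 to 5.37 log2 on Eomes+ arrays and 5.05 to 5.20 on Eomes- arrays. Of these genes, Ms4a1, Blk, Jchain and Tnfrsf17 were below the filter level on all arrays. Cd79a, Cd79b and Pax5 were above it on all 6 arrays, Cd22 on 5 (8.19 log2 on the first Eomes+ array) and Fcrla on 1. For NK cells, 2 of 4 listed markers were measured. Ncr1 was below the filter level on all arrays, and Klra8 was above it on 1, the third Eomes- array (6.83 log2). The filter level is the 40th percentile of each array, between 5.70 and 5.72 log2, and a probe set was tested if it lay above this level on at least 3 of the 6 arrays.

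All 14 member probe sets were tested, 12 of them above the filter level on all 6 arrays. Slamf1 and Cd244a had lower means in Eomes+ cells for every one of their probe sets, 3 and 2 in number. Slamf6 had a higher mean for its brightest probe set and lower means for both others. The remaining receptors and the adaptor gene differed by less than 0.5 log2. In all, 4 of the 14 probe sets (28.6%) differed at least 2-fold, where 2.3% of the 27766 tested probe sets did. Limma called 0 of the 14 at an adjusted p under 0.05 and 0 over all tested (0%), and 2 of the 14 (14.3%) had an unadjusted p under 0.05, against 3.37% over all tested. With Eomes- replicate 3 left out, 5 members had an unadjusted p under 0.05, and with Eomes+ replicate 3 or Eomes- replicate 1 left out 1 did. The whole-table counts at this limma p were 1599, 1095 and 651 in these settings, in that order. With all arrays kept the count was 936 of 27766. With Eomes- replicate 1 left out, 2 members differed at least 2-fold. The median difference was -0.17 log2 over the 14 probe sets and -0.02 over all tested, with 9 lower and 5 higher means. Probe sets of 1 gene share its transcripts, so the 14 are not independent of each other.

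**Figure D1:**
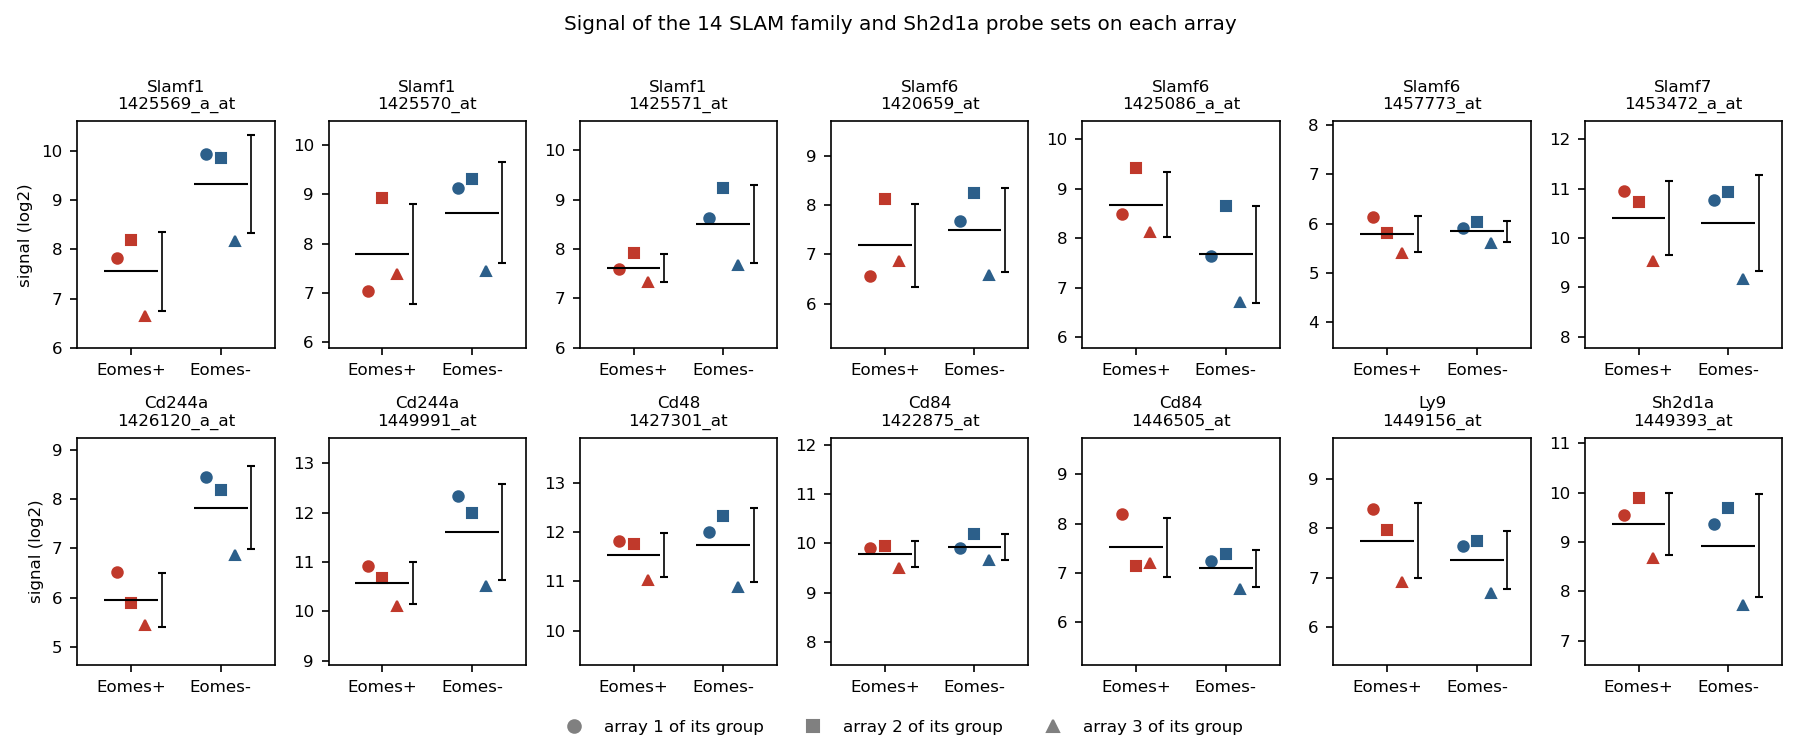
Signal (log2) of each of the 14 probe sets on the 3 Eomes+ arrays (red, left) and the 3 Eomes- arrays (blue, right), with marker shape giving the array number, a line for the mean and a bar for 1 SD. Each panel spans the same range of signal, and for Cd244a 1426120_a_at alone do all 3 Eomes+ arrays lie below all 3 Eomes- arrays.

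Cd244a encodes CD244, also called 2B4, the receptor for Cd48 on CD8 T and NK cells. Its probe set 1426120_a_at read 6.52, 5.89 and 5.44 log2 on the Eomes+ arrays and 8.43, 8.18 and 6.86 on the Eomes- arrays. All Eomes+ arrays were below all Eomes- arrays, and the third array was the lowest of each fraction. The difference was -1.87 log2 (SE 0.50, 95% interval -3.06 to -0.69), a 3.67-fold lower signal in Eomes+ (limma adjusted p = 1.00, unadjusted p = 0.00744). This was the one member probe set of 14 (7.14%) whose groups did not overlap, where 8.06% of all tested probe sets did not, so that share is near the background. It lay above the filter level on 5 of 6 arrays, and background signal can compress a difference that reaches this low.

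The other Cd244a probe set, 1449991_at, read 10.92, 10.68 and 10.10 log2 on the Eomes+ arrays and 12.33, 11.99 and 10.51 on the Eomes- arrays. The first and second Eomes- arrays were above every Eomes+ array, while the third Eomes- array lay among them. Its difference was -1.04 log2 (SE 0.49, 95% interval -2.20 to 0.12; limma adjusted p = 1.00, unadjusted p = 0.0707), in the same direction as the first. Leaving out Eomes- replicate 3 gave -1.59 log2, and leaving out Eomes- replicate 1 gave -0.68. With an estimated weight for each array, 1426120_a_at passed the test over all probe sets at -2.24 log2 (limma adjusted p = 0.0457), where 74 probe sets passed in all. That weighting lowered p-values widely, with 6270 probe sets of the whole table at an unadjusted limma p under 0.05, against 936 without it. In an array of sorted cells, fewer cells that hold a transcript and less of it per cell cannot be told apart.

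Slamf1 encodes SLAM (CD150), a self-binding costimulatory receptor that rises on activated T cells. Its probe set 1425569_a_at read 7.83, 8.19 and 6.65 log2 on the Eomes+ arrays and 9.94, 9.86 and 8.17 on the Eomes- arrays. The groups overlapped by a narrow margin, the second Eomes+ array lying just above the third Eomes- array. The difference was -1.77 log2 (SE 0.61, 95% interval -3.22 to -0.32), or 3.41-fold lower in Eomes+ (limma adjusted p = 1.00, unadjusted p = 0.0236). Both other probe sets had smaller differences in the same direction. Probe set 1425571_at read 7.60, 7.92 and 7.33 log2 on the Eomes+ arrays and 8.63, 9.24 and 7.67 on the Eomes- arrays, a difference of -0.90 log2 (SE 0.43, 95% interval -1.92 to 0.13). Probe set 1425570_at read 7.04, 8.93 and 7.38 log2 on the Eomes+ arrays and 9.12, 9.31 and 7.45 on the Eomes- arrays, a difference of -0.84 log2 (SE 0.67, 95% interval -2.45 to 0.76). In both, the third Eomes- array lay within the range of the Eomes+ arrays. Leaving out Eomes+ replicate 1 gave -0.47 log2 for 1425570_at, and leaving out Eomes- replicate 2 gave -0.50 for it and -0.53 for 1425571_at. Leaving out Eomes- replicate 3 gave -1.43 log2 for 1425570_at, and leaving out Eomes+ replicate 2 gave -1.42.

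On average, markers of CD4 and regulatory T cells moved in the same direction as Slamf1. The mean of the 5 genes listed was 7.25, 7.11 and 6.44 log2 on the Eomes+ arrays and 8.02, 8.23 and 7.19 on the Eomes- arrays, with 4 of 5 lower in Eomes+. Its difference between the fractions was -0.88 log2. The T cell and CD8 marker mean also differed, by -0.25 log2, with 8 of 9 genes lower in Eomes+. Ccr8, a chemokine receptor gene of regulatory T cells, averaged 5.72 ± 1.32 log2 in Eomes+ and 8.18 ± 1.44 in Eomes-, and Cd40lg averaged 4.86 ± 0.18 in Eomes+ and 6.56 ± 0.92 in Eomes-. Cd40lg was below the filter level on every Eomes+ array (4.74 to 5.06 log2) and above it only on the 3 Eomes- arrays. Ccr8 was below it on the third Eomes+ array (4.20 log2) and above it on the other 5 arrays. Ikzf2, the brightest of the 5, went the other way, at 9.39 ± 1.17 log2 in Eomes+ and 9.08 ± 1.25 in Eomes-. Cd4 averaged 7.09 ± 0.32 log2 in Eomes+ and 7.32 ± 0.24 in Eomes-, and Foxp3 averaged 7.60 ± 0.30 in Eomes+ and 7.94 ± 0.22 in Eomes- (SD, n = 3 each). The part of such cells in the Slamf1 and Cd244a values was not tested. With the mean of the macrophage and tumour markers of each array as a covariate, the differences were -1.59 log2 for Slamf1 1425569_a_at (SE 0.39), -1.71 for Cd244a 1426120_a_at (SE 0.26) and -0.88 for Cd244a 1449991_at (SE 0.23).

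Slamf6 encodes the self-binding receptor Ly108, and its probe sets disagreed. The brightest, 1425086_a_at, read 8.49, 9.42 and 8.13 log2 on the Eomes+ arrays and 7.64, 8.66 and 6.71 on the Eomes- arrays. The second Eomes- array lay above 2 of the Eomes+ arrays and the others lay below all 3. The difference was 1.01 log2 (SE 0.57, 95% interval -0.34 to 2.36; limma adjusted p = 1.00, unadjusted p = 0.119), with 0.53 log2 when Eomes- replicate 3 was left out and 0.64 when Eomes+ replicate 2 was. Probe set 1420659_at read 6.55, 8.13 and 6.86 log2 on the Eomes+ arrays and 7.67, 8.23 and 6.58 on the Eomes- arrays, with a difference of -0.31 log2 (SE 0.57, 95% interval -1.68 to 1.05) and groups that overlapped. Without Eomes- replicate 2 its difference was 0.057 log2. The dimmest, 1457773_at, read 5.40 to 6.14 log2 on the Eomes+ arrays and 5.61 to 6.03 on the Eomes- arrays, close to the filter level, and differed by -0.07 log2 (SE 0.27).

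The 2 brighter Slamf6 probe sets were also compared with each other within each array. The signal of 1425086_a_at minus that of 1420659_at was 1.93, 1.29 and 1.28 log2 on the Eomes+ arrays and -0.03, 0.43 and 0.13 on the Eomes- arrays. All Eomes+ values were above all Eomes- values, and the mean was 1.50 ± 0.38 log2 in Eomes+ and 0.18 ± 0.23 in Eomes- (SD, n = 3 each). The difference of 1.33 log2 had an exact two-sided permutation p of 0.1, the smallest that 3 against 3 allows (0.267 adjusted over the 8 pairs of probe sets of 1 gene among the members). Such a quantity is not a level, and it compares how the 2 probe sets differed between the fractions. In the annotation both are given to Slamf6 without naming a transcript. The suffix _a_at marks a probe set whose probes match several transcripts of 1 gene.

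**Figure D2:**
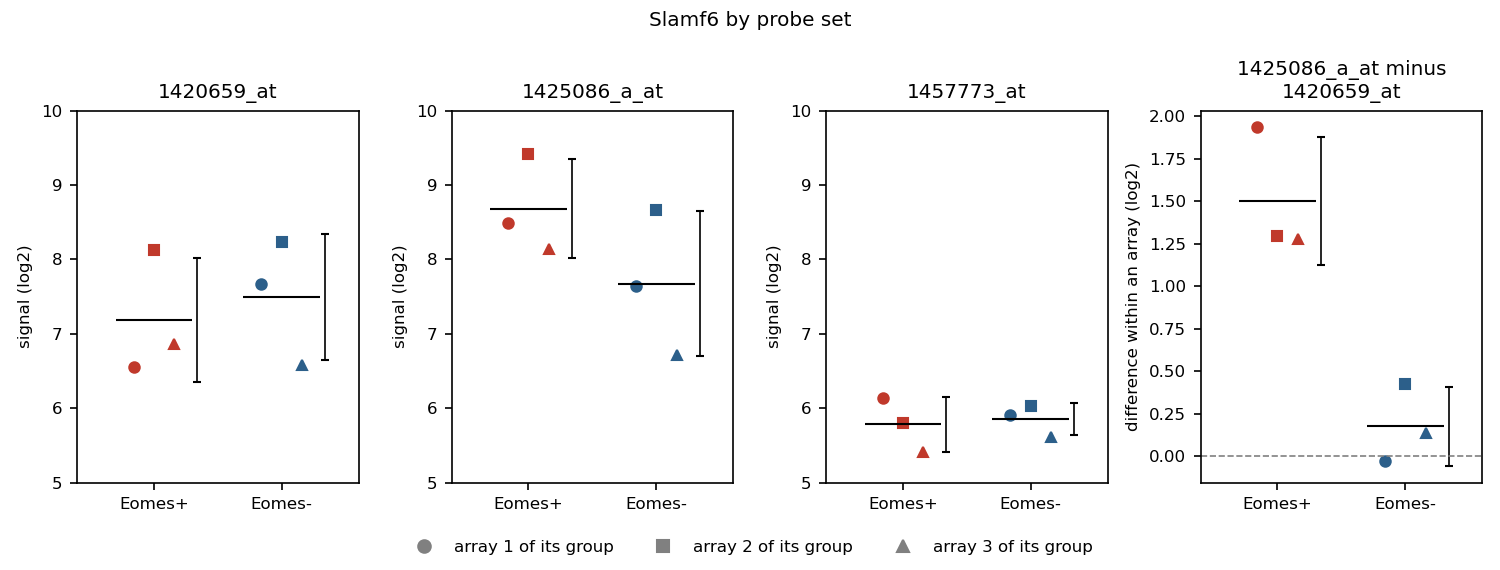
Signal (log2) of the 3 Slamf6 probe sets on Eomes+ (red, left) and Eomes- arrays (blue, right), and, in the last panel, the within-array difference of the brighter pair, with means, 1 SD bars and marker shapes for array numbers. The within-array difference was 1.28 to 1.93 log2 on Eomes+ arrays and -0.03 to 0.43 on Eomes- arrays.

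Within-array differences were computed for all 8 such pairs, and in 3 the groups did not overlap, where 10.5% of the 18668 pairs of tested probe sets of 1 gene in the whole table did not. Of all these pairs, 1.46% were both separate and at least 1 log2 apart, and among the 8 the Slamf6 pair alone was. That pair had the largest difference of the 8, so this share is no test of it. The second pair was that of Cd244a, where 1449991_at minus 1426120_a_at was 4.40, 4.80 and 4.66 log2 on the Eomes+ arrays and 3.89, 3.82 and 3.65 on the Eomes- arrays. The probe sets of Cd244a shared a direction but not a size. The third was Slamf1 1425569_a_at minus 1425571_at, at 0.23, 0.28 and -0.69 log2 on the Eomes+ arrays and 1.32, 0.62 and 0.50 on the Eomes- arrays. Both had an exact permutation p of 0.1 (0.267 adjusted over the 8 pairs). The log2 ratio of the 3' to the 5' Gapdh control probe set, a sign of RNA quality, also differed between the fractions. It was 1.88, 1.77 and 1.55 on the Eomes+ arrays and 1.54, 1.07 and 1.11 on the Eomes- arrays (exact two-sided permutation p = 0.1), and its part in the probe-set differences was not tested.

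Cd48, the ligand of Cd244a and of Cd2, read 11.82, 11.76 and 11.02 log2 on the Eomes+ arrays and 12.01, 12.32 and 10.89 on the Eomes- arrays. The groups overlapped, with the third array the lowest of each. Its difference was -0.21 log2 (SE 0.40, 95% interval -1.17 to 0.76). Slamf7 encodes CRACC, a self-binding receptor of NK cells, activated T cells and plasma cells, and read 10.95, 10.73 and 9.54 log2 on the Eomes+ arrays and 10.78, 10.94 and 9.18 on the Eomes- arrays. Its difference was 0.11 log2 (SE 0.57, 95% interval -1.25 to 1.46), so differences of more than 2-fold either way lie within the interval. Its direction turned without Eomes+ replicate 1 (-0.16 log2), Eomes+ replicate 2 (-0.050) or Eomes- replicate 3 (-0.45), and that of Cd48 without Eomes+ replicate 3 (0.051) or Eomes- replicate 2 (0.087).

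Cd84, a self-binding receptor of T cells, B cells and myeloid cells, had probe sets of opposite sign that were both small. Probe set 1422875_at read 9.91, 9.95 and 9.49 log2 on the Eomes+ arrays and 9.91, 10.18 and 9.67 on the Eomes- arrays, and differed by -0.14 log2 (SE 0.23, 95% interval -0.69 to 0.42). Without Eomes+ replicate 3 it differed by 0.0092 log2. Probe set 1446505_at read 8.20, 7.15 and 7.20 log2 on the Eomes+ arrays and 7.24, 7.38 and 6.67 on the Eomes- arrays, and differed by 0.42 log2 (SE 0.38, 95% interval -0.49 to 1.33). The first Eomes+ array alone lay above all Eomes- arrays, and without it the difference was 0.078 log2. Ly9, the self-binding receptor CD229, read 8.39, 7.96 and 6.91 log2 on the Eomes+ arrays and 7.64, 7.74 and 6.68 on the Eomes- arrays. The first and second Eomes+ arrays were above every Eomes- array, and the difference was 0.40 log2 (SE 0.48, 95% interval -0.74 to 1.54), with 0.081 when Eomes+ replicate 1 was left out and 0.062 when Eomes- replicate 3 was.

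Sh2d1a, whose product SAP couples most of the receptors to FYN, read 9.54, 9.89 and 8.67 log2 on the Eomes+ arrays and 9.36, 9.68 and 7.73 on the Eomes- arrays. The groups overlapped, and the third Eomes- array stood below the other 5. The difference was 0.44 log2 (SE 0.57, 95% interval -0.93 to 1.81; limma adjusted p = 1.00), and without Eomes- replicate 3 it was -0.15. On the deposited values the adaptor gene thus showed no difference beyond its spread, and the interval covers a 2-fold difference upwards. Relative to the T cell markers, as given below, its groups did not overlap.

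T cell marker signal varied between arrays of 1 fraction, and 11 of 14 member probe sets were lowest on the third Eomes+ array and 14 of 14 on the third Eomes- array. The values were therefore also taken relative to the mean of the 9 T cell markers of each array. This adds 0.25 log2 to every difference, and the median of all tested probe sets becomes 0.23 log2 higher in Eomes+, so a member near that value did not stand apart from all tested probe sets. The groups then did not overlap for 6 of 14 probe sets (42.9%), where 3.61% of all tested probe sets did not overlap (8.06% before centring). Limma called 0 of the 14 and 0% of all tested at an adjusted p under 0.05, and 2 of the 14 (14.3%) had an unadjusted p under 0.05, against 0.717% of all tested. Centring narrows the spread of a gene that follows the T cell markers and can widen that of others. The SD of Slamf7 went from 0.76 to 0.035 log2 in Eomes+ and from 0.97 to 0.25 in Eomes-. That of Cd84 1422875_at rose from 0.26 to 0.48 in Eomes+ and to 0.54 in Eomes-. The shares over all tested are therefore not a like background for T cell genes.

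On that scale Slamf1 1425569_a_at was 7.43, 8.01 and 7.59 log2 on the Eomes+ arrays and 9.37, 9.32 and 8.90 on the Eomes- arrays. The groups were then separate, and the difference was -1.52 log2 (SE 0.51; limma adjusted p = 1.00, unadjusted p = 0.0135). Cd244a was separate for both probe sets, by -1.63 log2 (SE 0.56) for 1426120_a_at and -0.79 (SE 0.46) for 1449991_at. Slamf6 1425086_a_at was 8.09, 9.24 and 9.08 log2 on the Eomes+ arrays and 7.07, 8.13 and 7.44 on the Eomes- arrays, overlapping by the first Eomes+ array, at 1.26 log2 (SE 0.58). Sh2d1a was 9.15, 9.71 and 9.62 log2 on the Eomes+ arrays and 8.80, 9.15 and 8.46 on the Eomes- arrays, separate by a difference of 0.69 log2 (SE 0.49). Ly9 was 7.99, 7.78 and 7.86 log2 on the Eomes+ arrays and 7.07, 7.21 and 7.42 on the Eomes- arrays, separate by 0.65 (SE 0.53). Slamf7 was separate too, at 10.56, 10.55 and 10.49 log2 on the Eomes+ arrays and 10.21, 10.40 and 9.91 on the Eomes- arrays, although its difference of 0.36 log2 (SE 0.45) is close to the median of all tested probe sets. Cd48 (0.043 log2), Cd84 1422875_at (0.11) and Slamf6 1457773_at (0.18) turned from lower to higher in Eomes+ on this scale.

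**Figure D3:**
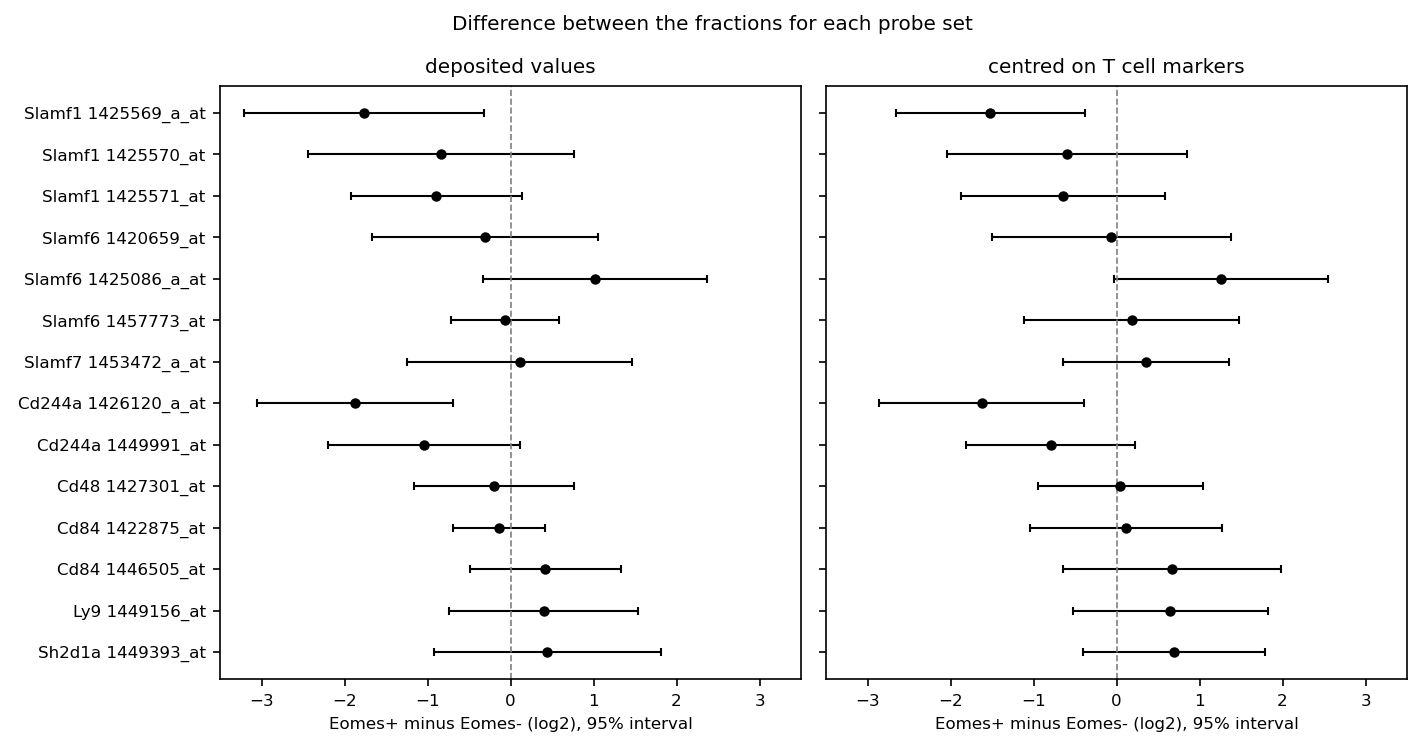
Difference between Eomes+ and Eomes- (log2) for each of the 14 probe sets, with its 95% interval from limma, on the deposited values (left) and on values centred on the 9 T cell markers (right). On both scales the intervals of Slamf1 1425569_a_at and Cd244a 1426120_a_at lie below 0 and all others include it.

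The values without both arrays numbered 3, which had the lowest T cell marker signal, were computed after seeing the data. With them left out, 5 of 14 member probe sets differed at least 2-fold, against 4.37% of the table, and all were of Slamf1 (3) or Cd244a (2). Slamf1 1425569_a_at differed by -1.89 log2, Cd244a 1426120_a_at by -2.10 and Cd244a 1449991_at by -1.36. Slamf6 1425086_a_at differed by 0.81 log2, under 2-fold.

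Other genes of SLAM signalling were taken from lists by role, with the brightest probe set for each gene. Of 27 listed genes, 23 were tested, 9 with a higher and 14 with a lower mean in Eomes+, and limma called 0 higher and 0 lower. None of the 23 had an unadjusted p under 0.05 (0, against 3.37% of all tested probe sets), none was 2-fold apart (0), and the median was -0.02 log2, the same as over the whole table. Fyn, the kinase bound by SAP, read 11.49, 11.49 and 10.99 log2 on the Eomes+ arrays and 11.39, 11.49 and 10.12 on the Eomes- arrays, a difference of 0.32 log2 (SE 0.38). The phosphatase genes Ptpn6, which encodes SHP-1, and Inpp5d, which encodes SHIP-1, differed by -0.16 (SE 0.39) and 0.06 log2 (SE 0.49), the second with another probe set of opposite sign. Cd2, an adhesion receptor that also binds Cd48, differed by -0.07 log2 (SE 0.44). The largest differences of the 23 were 0.55 log2 for Slamf9 (SE 0.98) and -0.41 for the adaptor gene Lcp2 (SE 0.42). Lck and the SAP-related adaptor genes Sh2d1b1 and Sh2d1b2 were not analysed here.

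Slamf8 and Slamf9, members of the family known from macrophages and dendritic cells, varied more between arrays than between fractions. Slamf8 read 4.21, 7.06 and 7.46 log2 on the Eomes+ arrays and 4.34, 6.44 and 7.76 on the Eomes- arrays. Slamf9 read 5.74, 8.06 and 8.69 log2 on the Eomes+ arrays and 5.61, 6.66 and 8.56 on the Eomes- arrays. In both fractions the order of the arrays was that of the macrophage marker mean given above, with the first array lowest and the third highest, and was the reverse of the T cell marker mean. The Slamf8 difference was 0.06 log2 (SE 1.12).

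**Figure D4:**
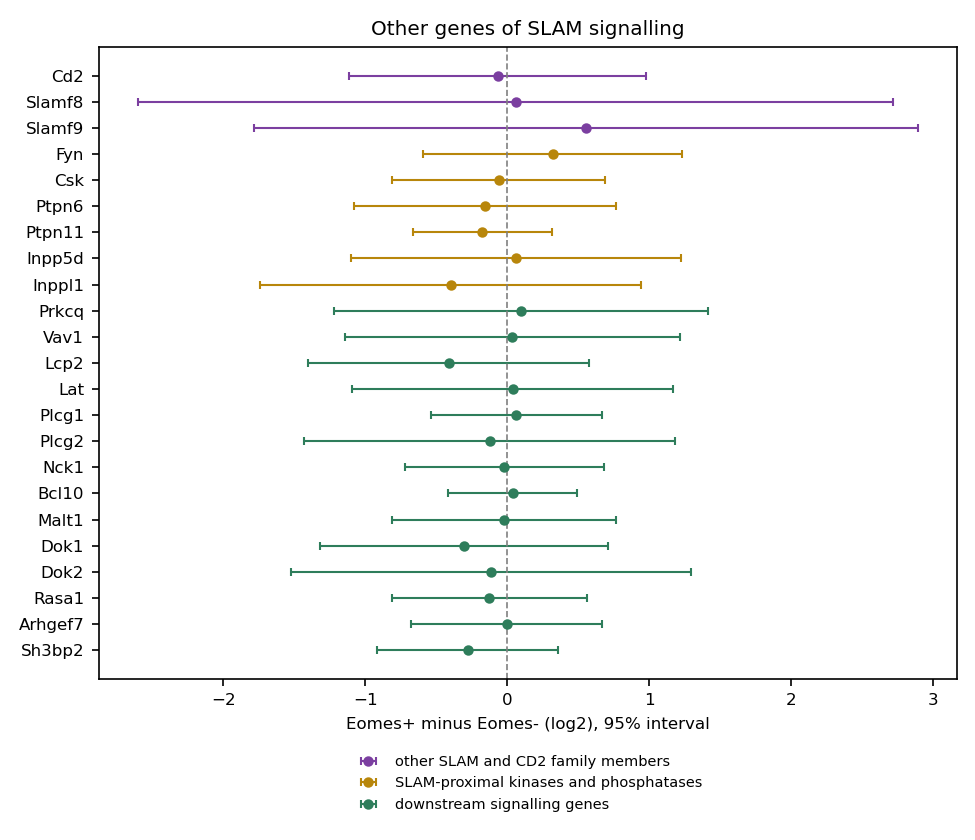
Difference between Eomes+ and Eomes- (log2) for the 23 tested genes of SLAM signalling, coloured by list, with 95% intervals from limma. All 23 intervals include 0, and the differences run between -0.41 and 0.55 log2.

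The genes whose values over the 6 arrays were most like those of a member were found by Pearson correlation among tested probe sets of 1 gene with a range of at least 1 log2. These are descriptions over few points that share the array-to-array differences in T cell signal. For Slamf1 1425569_a_at, among 12191 candidates, they were Ccr8 (r = 0.996), Prdm1 (0.995) and Irf4 (0.994), and Ccr8 is also in the list of CD4 and regulatory T cell markers. For Slamf6 1425086_a_at they were Mst1 (0.984), Itga4 (0.982) and Itm2b (0.981). For Slamf7 they were Prkcq (0.997), Mbp (0.996) and Ppm1j (0.996), of which Prkcq was also in the SLAM signalling lists. For Sh2d1a they were Dmac1 (0.998), Ccar2 (0.995) and Nemp2 (0.995).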

How the data were processed

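Total RNA of 6 sorted samples, 3 Eomes+ and 3 Eomes-, grouped by sample title, was biotin-labelled after Trizol extraction, per the labels' protocols. The authors deposited log2 values for 45101 probe sets. The submitters' processing notes name Transcriptome Analysis Console and MAS5 but no version or role, and the sources used here do not say how probes were summarised. Array medians were nearly equal (6.35 to 6.42), so a shift common to most genes would have been removed before deposit. The number of arrays limits the precision. Control probe sets (64) were left out. Symbols were updated by gene identifier through RefSeq (GRCm38.p6), 34945 probe sets had 1 symbol, 932 several and 9160 none listed here. Probe sets above the 40th percentile on at least 3 arrays (27766) were tested two-sided with limma 3.58.1 (R 4.3.3), by lmFit and then eBayes with an intensity trend. P-values were adjusted by Benjamini-Hochberg over all of these, with a threshold of 0.05. Single values were tested by exact permutation in SciPy 1.17.1. The fit was tested on simulated data. Members, lists, tests and most alternatives were chosen with earlier results of these data known. Named genes are all member probe sets, Eomes, fixed pathway genes, the largest pathway differences (chosen after their values were seen) and the 3 genes most correlated with Slamf1, Slamf6, Slamf7 and Sh2d1a. The replicate number was not a block in the fit, because no label ties it to an experiment. Alternatives were a replicate block, arrays left out, other filters, scalings, pseudocounts, variance models, a marker covariate and 1 probe set per gene.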

Additional observations from a re-analysis of the deposited data

How the results depend on the processing

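Over 20 alternatives at most, the member differences stayed on their side of 0 and of the threshold in 251 values, turned in 20 and newly passed in 1. With array weights 74 probe sets were called in all against 0, among the members 1 against 0 (Cd244a 1426120_a_at, -2.24 log2), while Slamf7 (-0.25) and Cd84 1446505_at (-0.044) turned. T cell marker centring turned Slamf6 1457773_at (0.18), Cd48 (0.043) and Cd84 1422875_at (0.11), with the same values when a replicate block was added, and that combination, chosen after seeing the data, called 7 probe sets in all and 0 members. Without both arrays numbered 3, also chosen later, Slamf6 1457773_at (0.0038) and Slamf7 (-0.020) turned. With each array left out in turn, differences ranged from -0.79 to 0.057 log2 for Slamf6 1420659_at, -0.24 to 0.12 for Slamf6 1457773_at, -0.45 to 0.54 for Slamf7, -0.63 to 0.087 for Cd48, -0.26 to 0.0092 for Cd84 1422875_at, -0.15 to 0.82 for Sh2d1a, -2.34 to -1.31 for Slamf1 1425569_a_at and -2.36 to -1.57 for Cd244a 1426120_a_at. Members at least 2-fold apart then numbered 2 (without Eomes- replicate 1) to 5 (without Eomes+ replicate 2 or Eomes- replicate 3), against 4. In these settings the whole-table counts were 832, 906 and 1948, in that order, against 640 with all arrays. The cause was not tested. Members at an unadjusted limma p under 0.05 numbered 1 to 7 over all alternatives, against 2. The 7 came with T cell marker centring and a replicate block. In that setting 4656 of the 27766 probe sets tested were at this level, against 936 in the main fit, so the count rose over the whole table too. Values close to background limit the dim probe sets.

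The replicate numbers were not taken as pairs. Deviations from the group means over tested probe sets correlated by 0.665, 0.0949 and 0.691 between arrays of 1 number, and the array of Eomes- replicate 2 was closest to Eomes+ replicate 1 (0.372). A replicate block left 0 probe sets and 0 members called, 2748 probe sets at an unadjusted p under 0.05 against 936, and 5 members against 2, among them Slamf1 1425569_a_at, Slamf6 1425086_a_at and both Cd244a probe sets (limma adjusted p = 0.102, 0.286, 0.13 and 0.209).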
